A study of Rattus norvegicus with 18 samples.

Results

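Transcripts of 6 integrin subunits and 4 proteins that bind integrins or the actin cytoskeleton at adhesions were followed in the rat hippocampus during chronic ethanol and after 24 h of withdrawal. The genes were Itgb3, Itgav, Itgb1, Itgb5, Itgb8, Itga6, Fermt2, Actn4, Tln1 and Tagln2, 10 of the 38445 genes in the count files. They were picked by symbol with earlier results of these data known, and the group differences were among those results. The differences of these 10 genes are therefore given as descriptions, without p-values. All 10 passed the filter on low values (more than 0.5 CPM, counts scaled to library size, in at least 1 rat), as did 17853 genes in all, and each of the 10 passed it in control rats too.

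RNA came from the hippocampus of 18 adult male Sprague Dawley rats, 6 per group, and the study names the dorsal part. Every rat received a Lieber-DeCarli liquid diet as its sole food and fluid. Control rats had the control diet for 16 days, ethanol rats had a 9% (v/v) ethanol diet for 16 days with 0 h of withdrawal, and withdrawal rats had the 9% diet for 15 days and then control diet for 24 h. The data thus describe 1 strain, 1 sex and whole tissue, in which fewer cells of a type and less RNA per cell cannot be told apart.

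Integrins are cell surface receptors made of an alpha and a beta subunit, and they bind proteins of the extracellular matrix and, in some pairs, latent TGF-beta. Talin and kindlin bind the short tail of the beta subunit and switch the receptor to its active form, and talin and alpha-actinin link it to actin. In the brain, integrins act in the contact of astrocytes and vascular cells with the basement membrane, in microglia and at synapses.

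The libraries held between 30873228 and 42679748 counts on genes (median 36302755). Among the 3 sets of index sequences, set 1 tagged the 6 control rats, set 2 the 6 ethanol rats with withdrawal rats 1 and 2, and set 3 withdrawal rats 3 to 6, so that index set and treatment cannot be told apart in any comparison with controls. The tissue samples also differed in makeup. The summed CPM of 6 choroid plexus markers, Ttr and Slc4a5 among them, ran from 1090 to 2270 in control rats, from 1470 to 5370 in ethanol rats and from 28.1 to 5400 in withdrawal rats. That of 5 thalamic markers reached 1310 in ethanol rat 1, against 679 in the highest control rat. Withdrawal rat 5 had the lowest sum of hippocampal markers (257, against at least 431 in the other 17 rats) and the highest sum of fibroblast markers (523, against at most 140 in the others). Of 6 hippocampal markers, Fibcd1 was at 0 counts in 13 of 18 rats, while Prox1, Neurod6, Wfs1 and Grik4 had group means of at least 72.8 CPM and Zbtb20 of at least 2.68 CPM.

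In control rats the 10 transcripts covered a wide range of levels. Per kilobase of exon, Fermt2, which encodes kindlin-2, had the highest median level (39.8 CPM per kilobase, range 36.8 to 42.4). Actn4, an alpha-actinin that cross-links actin, followed at 29.9 and Itgb1, the beta subunit shared by the largest number of integrins, at 27.9, with overlapping ranges. Itgb8 (16.7) and Itgav (16.2), whose products pair in a receptor for latent TGF-beta, came next and overlapped each other. Itgb5 (11.7), Itga6 (11.6), a laminin receptor subunit, and Tagln2 (11.5), an actin-binding protein of the calponin family, did not differ beyond their spread. Tln1, which encodes talin-1, lay below all of these at 9.13, and Itgb3 was lowest at 0.192 (0.0992 to 0.279). Measured by these medians, Fermt2 stood above 89.7% of the tested genes, Tln1 above 60.3% and Itgb3 above 7.64%.

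**Figure D1:**
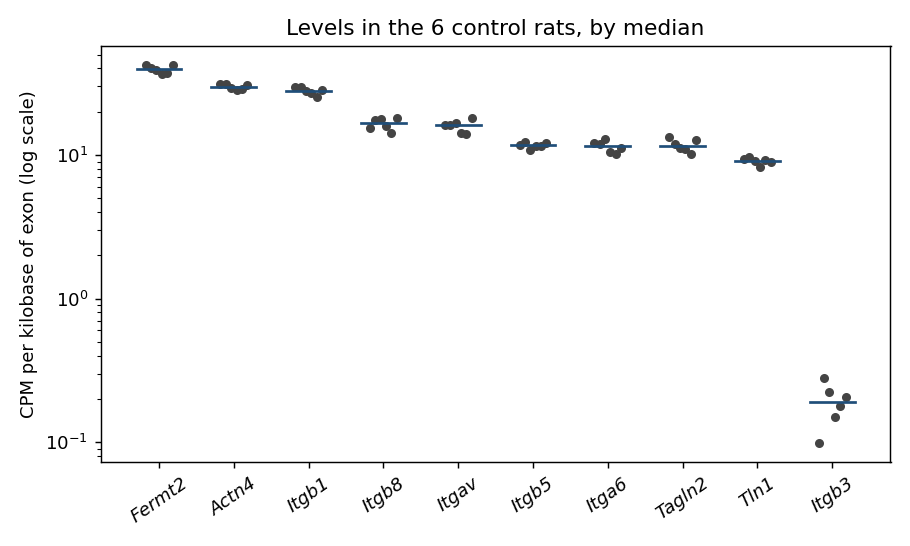
Level of each transcript in the 6 control rats, in TMM-normalized CPM per kilobase of exon on a log axis, ordered by median (line); each point is a rat. The other 9 transcripts lie within 8.27 to 42.4, and Itgb3 lies at 0.0992 to 0.279.

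The beta subunits can be set side by side as shares of their summed level per kilobase. In control rats Itgb1 made up a median of 44.0%, Itgb8 26% and Itgb5 18.6%. Itgb4, Itgb2 and Itgb6 followed with 4.94%, 3.73% and 1.88%. Itgb3, the partner of alpha-v in the vitronectin receptor and of alpha-IIb on platelets, made up 0.312%. Its share had a median of 0.562% in ethanol rats and 0.436% in withdrawal rats, so that Itgb3 remained a minor beta transcript in every group. Itgb1 had 40.6% in ethanol rats and 46.7% in withdrawal rats.

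On Rnor_6.0, the build of the files, the genes lie on 9 chromosomes. Itgb3 is annotated at chr10:92667869-92783413 on the plus strand, with 22 exon entries and 2152 bases of exon, Itgav at chr3:71113269-71205958 and Itga6 at chr3:58442904-58515124, both plus, and Itgb1 at chr19:61677512-61725537, plus. The other 6 are on the minus strand: Itgb5 at chr11:70056500-70172164, Itgb8 at chr6:147089280-147172846, Fermt2 at chr15:19807806-19876557, Actn4 at chr1:87078012-87147347, Tln1 at chr5:59033635-59063592 and Tagln2 at chr13:90807196-90814119. The 5′ part of Tagln2 lies within the span of Igsf9 on the same strand, and featureCounts by default assigns reads in exon sequence of both genes to neither. Igsf9 had at most 291 counts in any rat.

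Promoter sequences from RefSeq (GRCr8, windows of 300 bases around the start of the gene) matched 6 of the 10 genes, namely Itgav, Itgb1, Itgb5, Itgb8, Tln1 and Tagln2. Those of 3 genes are shown because their transcripts were higher in withdrawal than in both other groups and their promoters hold at least 1 of the motifs searched. Capitals mark matches, on either strand, to the GC box (GGGCGG) bound by Sp proteins and to the TEAD motif (GGAATG). They lie at chr3:89245132-89245431 (Itgav, plus), chr19:73602027-73602326 (Itgb1, plus) and chr13:87499158-87499457 (Tagln2, plus, while the files' build Rnor_6.0 has this gene on the minus strand).
Itgav: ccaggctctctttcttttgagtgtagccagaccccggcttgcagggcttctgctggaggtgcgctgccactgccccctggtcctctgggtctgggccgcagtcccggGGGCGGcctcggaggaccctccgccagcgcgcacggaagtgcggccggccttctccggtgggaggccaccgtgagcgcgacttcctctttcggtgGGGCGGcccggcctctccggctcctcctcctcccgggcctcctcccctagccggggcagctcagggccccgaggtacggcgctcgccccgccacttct
Itgb1: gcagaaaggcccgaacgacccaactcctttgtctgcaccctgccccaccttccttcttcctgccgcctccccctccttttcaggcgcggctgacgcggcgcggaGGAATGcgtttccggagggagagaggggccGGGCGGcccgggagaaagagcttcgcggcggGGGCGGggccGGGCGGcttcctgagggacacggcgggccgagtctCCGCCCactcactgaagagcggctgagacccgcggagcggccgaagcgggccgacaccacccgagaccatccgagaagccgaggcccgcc
Tagln2: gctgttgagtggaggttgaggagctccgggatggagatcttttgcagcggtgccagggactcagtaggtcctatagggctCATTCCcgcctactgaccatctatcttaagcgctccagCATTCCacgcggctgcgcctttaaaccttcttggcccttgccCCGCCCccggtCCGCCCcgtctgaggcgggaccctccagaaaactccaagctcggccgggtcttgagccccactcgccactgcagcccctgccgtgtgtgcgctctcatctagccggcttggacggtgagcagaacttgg
Of the 6 promoters, 4 held a GC box, against 33.1% of 33469 promoters, and 3 (Itgb1, Itgb8 and Tagln2) held a TEAD motif, against 14.2%. None held the STAT motif TTCNNNGAA (8.87% of all promoters), the AP-1 motif TGANTCA (7.33%) or a CArG box (1.64%), the element bound by serum response factor. CG dinucleotides numbered 27 in Itgav, 35 in Itgb1, 45 in Itgb5, 14 in Itgb8, 9 in Tln1 and 19 in Tagln2, and the median over all promoters was 7. The matches describe letters only, and binding was not measured here.

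In the comparison of ethanol with control rats, which asks what chronic exposure changed, Itgb3 was the 1 gene of the 10 to be called. A call means q < 0.1 over all tested genes in limma-voom, and the model held 3 surrogate variables (unnamed sources of variation estimated from the data). Across all genes 0.493% were called, 0.336% as higher in ethanol. Itgb3 ranged from 0.214 to 0.601 CPM in control rats (median 0.413) and from 0.667 to 1.16 CPM in ethanol rats (median 0.861). Every ethanol rat was above every control rat, which held for 0.919% of all tested genes. The log2 fold change was 1.27 ± 0.21 (SE, n = 6 per group), and the ratio of mean CPM was 2.16. These levels rest on 7 to 21 counts per control rat and 26 to 43 per ethanol rat, so counting error is a large part of each value. The call did not hold everywhere. Itgb3 was not called without control rat 4, control rat 6 or ethanol rat 3, or with only ethanol and control rats fitted. Of all tested genes, these fits called 0, 2, 1 and 28 in turn, against 88 in the main model. The log2 fold change of Itgb3 was 1.11 to 1.37 over all left-out rats. DESeq2 gave Itgb3 a like fold change of 1.24 but no adjusted p.

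Platelets carry the Itgb3 product on their surface. The summed CPM of 5 platelet markers had medians of 2.89 in control, 4.04 in ethanol and 2.96 in withdrawal rats. The ranges overlapped, at 2.68 to 3.76, 2.86 to 5.01 and 2.51 to 3.84 in turn. Ppbp was at 0 counts in 16 of 18 rats, Gp9 in 8 and Gp1ba in 5, and neither of the 2 tested platelet genes, Itga2b and Pf4, was called in a comparison or had an unadjusted p under 0.05 by limma-voom. Itga2b, which encodes the partner subunit on platelets, had mean levels of 1.97 CPM in control, 2.74 CPM in ethanol and 1.89 CPM in withdrawal rats. The sum of the red blood cell markers went the other way, from 58.4 to 104 CPM in control rats (median 87.5) to 16.4 to 40.2 CPM in ethanol rats (median 27.4), with 2 of 2 tested genes called lower. The part of platelets or other blood cells in the Itgb3 level was not tested.

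The other 9 genes were not called between ethanol and control. The log2 fold changes of Itgav, Itgb1, Itga6, Fermt2, Actn4, Tln1 and Tagln2 lay between -0.03 and 0.06. Of the 10 fold changes 6 were above 0, as were 50.1% of those of all tested genes, and their median was 0.0055, against 0.00046 over all tested genes. Fermt2, for example, had a median of 143.8 CPM in control rats (132.7 to 153.0) and 142.7 CPM in ethanol rats (140.0 to 149.5).

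Itgb5 and Itgb8, whose products pair with alpha-v, had higher raw means in ethanol rats without being called. Itgb8 ranged from 119.5 to 150.6 CPM in control rats (median 139.3) and from 130.5 to 183.5 CPM in ethanol rats (median 155.3), and 3 of 6 ethanol rats were above every control rat. Its ratio of means was 1.14, and its log2 fold change was 0.06 ± 0.09 with surrogate variables and 0.18 ± 0.11 without them. Itgb5 ranged from 39.6 to 45.1 CPM in control rats (median 43.0) and from 40.7 to 75.8 CPM in ethanol rats (median 57.7). Of the 6 ethanol rats, 5 were above every control rat, and ethanol rat 5 was within the control range. For Itgb5 the ratio of means was 1.35 and the log2 fold change was 0.23 ± 0.08 with surrogate variables and 0.41 ± 0.14 without them, and neither passed the threshold. The summed choroid plexus markers were highest in the same ethanol rats, 1 and 6, that had the highest Itgb5, at 5370 and 5000 CPM beside 75.8 and 63.9 CPM of Itgb5. Withdrawal rat 4, lowest in Itgb5 at 34.1 CPM, also had the lowest choroid plexus sum (28.1), while withdrawal rat 5 had a like low sum (29.7) beside 56.6 CPM of Itgb5. The part of these markers in the Itgb5 level was not tested.

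**Figure D2:**
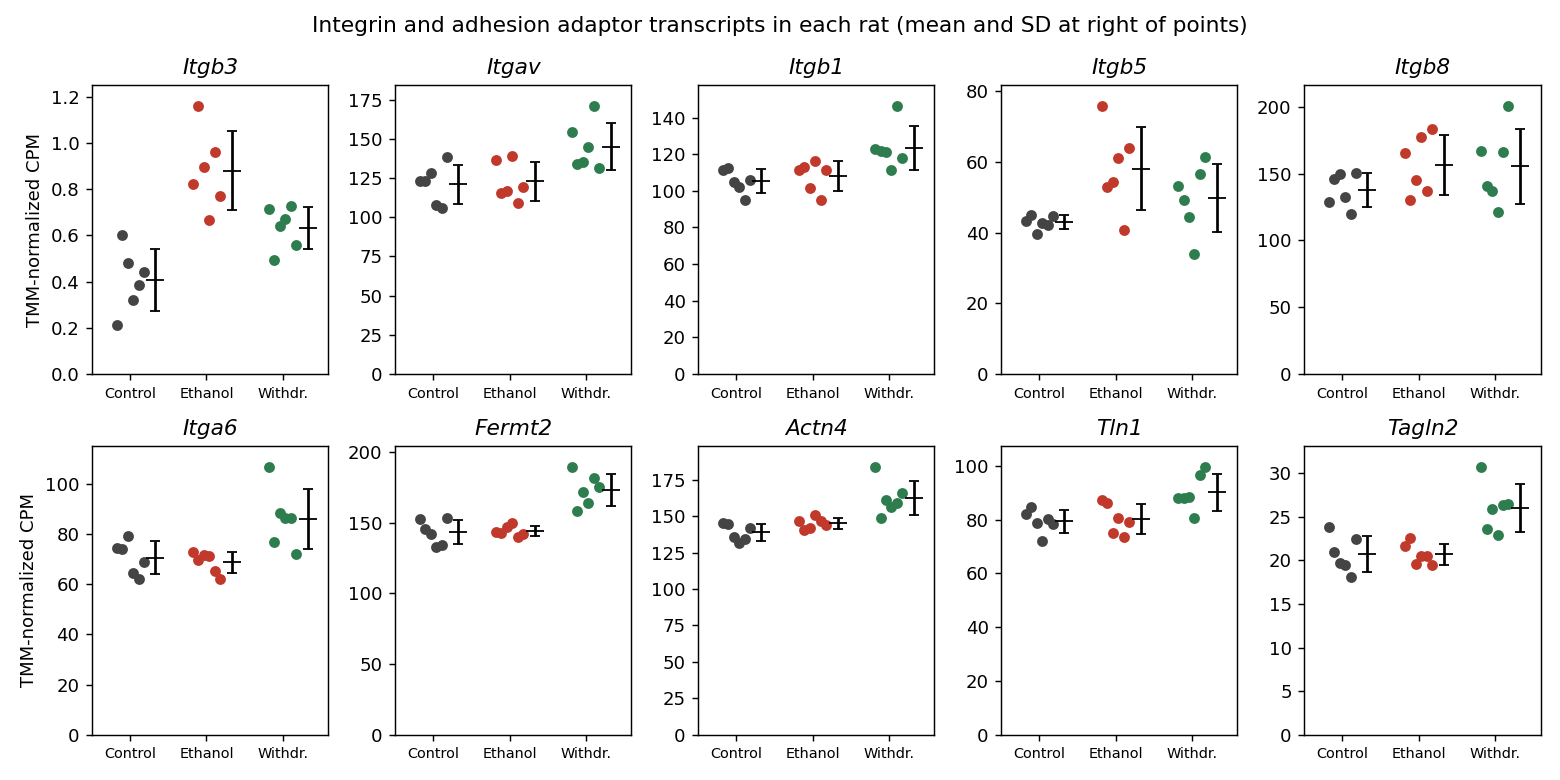
TMM-normalized CPM of each transcript in each of 18 rats (points), with the mean and SD of the 6 rats of a group at the right of the points. All ethanol rats lie above all control rats for Itgb3, and all withdrawal rats lie above all control rats for Fermt2 and Actn4.

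In the comparison of withdrawal with control rats, 8 of the 10 genes were called, all of them higher in withdrawal. Across all genes 5.41% were called, 2.85% in this direction. All 10 fold changes were above 0, as were 50.1% of those of all tested genes, and their median was 0.24 on the log2 scale (0.19 to 0.57), against 0.0003 over all tested genes. The differences were small, with ratios of mean CPM between 1.13 and 1.25 for every gene but Itgb3.

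Fermt2 ranged from 132.7 to 153.0 CPM in control rats (median 143.8) and from 158.2 to 189.3 CPM in withdrawal rats (median 173.4). The groups did not overlap, and the log2 fold change was 0.27 ± 0.04. Actn4 ranged from 131.3 to 145.0 CPM in control rats (median 138.9) and from 148.5 to 183.6 CPM in withdrawal rats (median 160.1), again without overlap, with a log2 fold change of 0.23 ± 0.04. Among all tested genes, 0.521% had every withdrawal rat above every control rat.

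Tagln2 was between 18.1 and 23.8 CPM in control rats (median 20.3) and between 22.95 and 30.69 CPM in withdrawal rats (median 26.1). With 0.33 ± 0.05 its fold change was the highest of the called members, and 4 of 6 withdrawal rats were above every control rat. Tln1 had medians of 79.4 CPM in control rats (72.0 to 84.7) and 88.3 CPM in withdrawal rats (80.5 to 99.5), a log2 fold change of 0.19 ± 0.05. The ranges of Tln1 overlapped.

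Among the integrin subunits, Itgav had a median of 123.3 CPM in control rats (105.8 to 138.4) and 140.1 CPM in withdrawal rats (131.7 to 170.7). Its log2 fold change was 0.23 ± 0.05 and 3 of 6 withdrawal rats lay within the control range. Itgb1 ranged from 95.0 to 112.3 CPM in control rats (median 105.3) and from 111.1 to 146.1 CPM in withdrawal rats (median 121.5), with a log2 fold change of 0.21 ± 0.05. Withdrawal rat 5, the rat with the low hippocampal and high fibroblast sums, was the highest for Itgav and Itgb1, and without it the ratios of means were 1.16 for Itgav and 1.13 for Itgb1, against 1.2 and 1.17 with it.

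Itga6 ranged from 62.3 to 79.3 CPM in control rats (median 71.4) and from 71.8 to 106.6 CPM in withdrawal rats (median 86.4). Its log2 fold change was 0.25 ± 0.06, with 4 of 6 withdrawal rats above every control rat. Itgb5 had a median of 51.2 CPM in withdrawal rats (34.1 to 61.5), a log2 fold change of 0.24 ± 0.07, and withdrawal rat 4 was below every control rat. Itgb5 was not called without surrogate variables or without a filter, and it was called in 10 of the 18 models that left out 1 rat. Itgb8 had medians of 139.3 CPM in control rats (119.5 to 150.6) and 153.4 CPM in withdrawal rats (121.2 to 200.4), and its log2 fold change of 0.20 ± 0.09 was not called. Itgb3 had a median of 0.655 CPM in withdrawal rats (0.493 to 0.726), and its log2 fold change of 0.57 ± 0.21 was not called either, with 4 of 6 withdrawal rats above every control rat.

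The fold changes of the 10 genes stayed above 0 in every model run, while their sizes and the number of calls varied. With 1 rat left out, Itgb8 ranged from 0.10 to 0.24, Itgb3 from 0.41 to 0.68 and Fermt2 from 0.25 to 0.29. Without surrogate variables the median fold change of the 10 genes was 0.24 as before, but 2 genes, Fermt2 and Actn4, were called. Without withdrawal rat 6, 2 genes were called, Fermt2 and Tagln2, and without control rat 6, 5 were called. Without withdrawal rats 1, 4 and 5 in turn, 6, 8 and 7 were called. All tested genes called numbered 41 without surrogate variables, 23 without withdrawal rat 6 and 428 without control rat 6, against 965. With withdrawal rats 1, 4 and 5 left out in turn, they numbered 555, 1148 and 1041. Fermt2 was called in each of the 9 other models and in each of the 18 models that left out 1 rat, and Tagln2 in 8 and 18 of these.

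**Figure D3:**
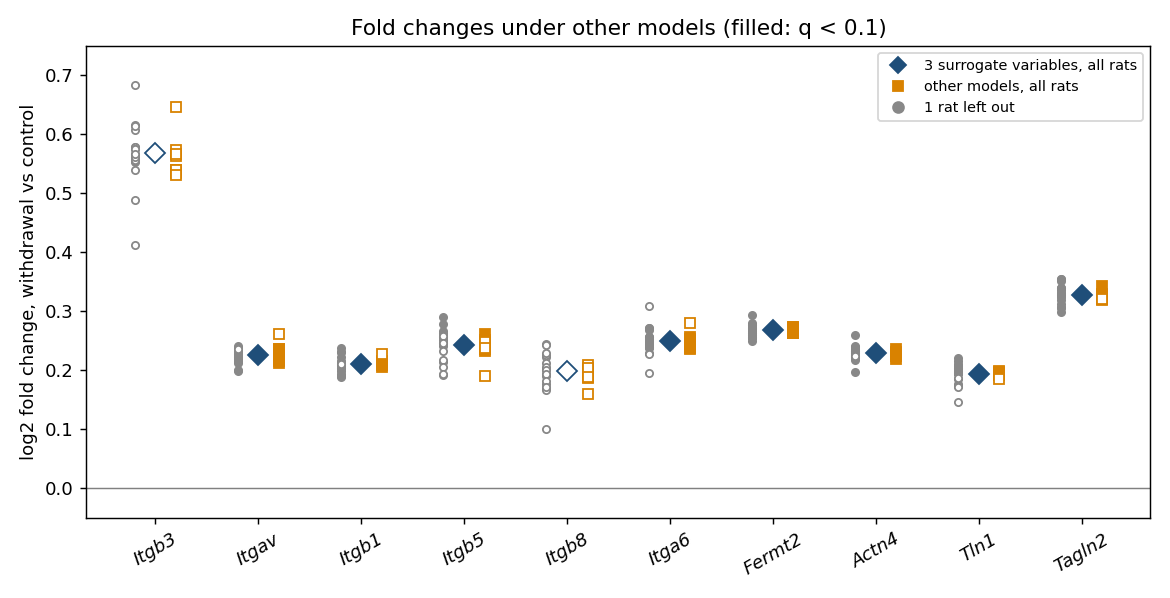
Log2 fold change between withdrawal and control for each transcript with 3 surrogate variables (diamonds), in 9 other models of all rats (squares) and with each of 18 rats left out (circles); filled symbols have q < 0.1. All values are above 0, and those of Fermt2 lie between 0.25 and 0.29.

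In the comparison of withdrawal with ethanol rats, 7 of the 10 genes were called, all higher in withdrawal, against 2.72% of all genes and 1.23% in this direction. Of the fold changes 9 of 10 were above 0, as were 49.9% of all, and their median was 0.21, against -0.00024 over all tested genes. Both comparisons share the withdrawal rats, so they are not separate evidence. Fermt2 (0.27 ± 0.04) and Tagln2 (0.33 ± 0.06) had every withdrawal rat above every ethanol rat, as did 0.611% of all tested genes. Tagln2 ranged from 19.4 to 22.6 CPM in ethanol rats (median 20.5). Itgav (0.26 ± 0.05), Itga6 (0.25 ± 0.07), Tln1 (0.22 ± 0.05), Itgb1 (0.20 ± 0.05) and Actn4 (0.17 ± 0.05) were called as well, with 3 to 5 of 6 withdrawal rats above every ethanol rat. Of the 18 models that left out 1 rat, Itga6 was called in 7 and Actn4 in 8, and neither was called with 2 surrogate variables or without a filter.

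Itgb3 went the other way. Its level was lower in withdrawal than in ethanol rats by a log2 fold change of -0.70 ± 0.21, which was not called, and no withdrawal rat reached the ethanol mean of 0.881 CPM. Of 8 other models 1 called Itgb3, that with the filter in 6 rats, as did 2 of the 18 models that left out 1 rat. Itgb5 had a fold change of 0.01 ± 0.08 with surrogate variables and of -0.22 ± 0.13 without them. The raw mean was 14.3% lower in withdrawal. Itgb8 likewise had 0.14 ± 0.10 and -0.02 ± 0.11, so neither gene had a direction that held in both models.

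Within the second index set, which holds all ethanol rats and 2 withdrawal rats, the mean of the withdrawal rats was higher for 7 of the 10 genes. The ratio to the ethanol mean was 1.33 for Itga6, 1.31 for Tagln2, 1.21 for Fermt2, 1.17 for Itgav, 1.14 for Actn4, 1.13 for Itgb1 and 1.10 for Tln1. It was 0.983 for Itgb8, 0.880 for Itgb5 and 0.687 for Itgb3. These are the same ethanol rats and 2 of the same withdrawal rats as above, so the ratios are no separate evidence. Withdrawal rat 1 was the highest withdrawal rat for Itga6, Fermt2, Actn4 and Tagln2, and rat 2 the lowest for Fermt2 and Actn4. The share of all tested genes with a higher mean was not computed for this contrast. No member was called between withdrawal and ethanol without ethanol rat 2, without ethanol rat 3 or without withdrawal rat 6. In each of these fits 0 of all tested genes were called, against 486 with all rats. Without withdrawal rat 3, 4 members were called, beside 380 of all genes. Without surrogate variables 4 members were called (Itga6, Fermt2, Actn4 and Tagln2), beside 621 of all genes. When only these 2 groups were fitted, 0 members and 0 of all genes were called.

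**Figure D4:**
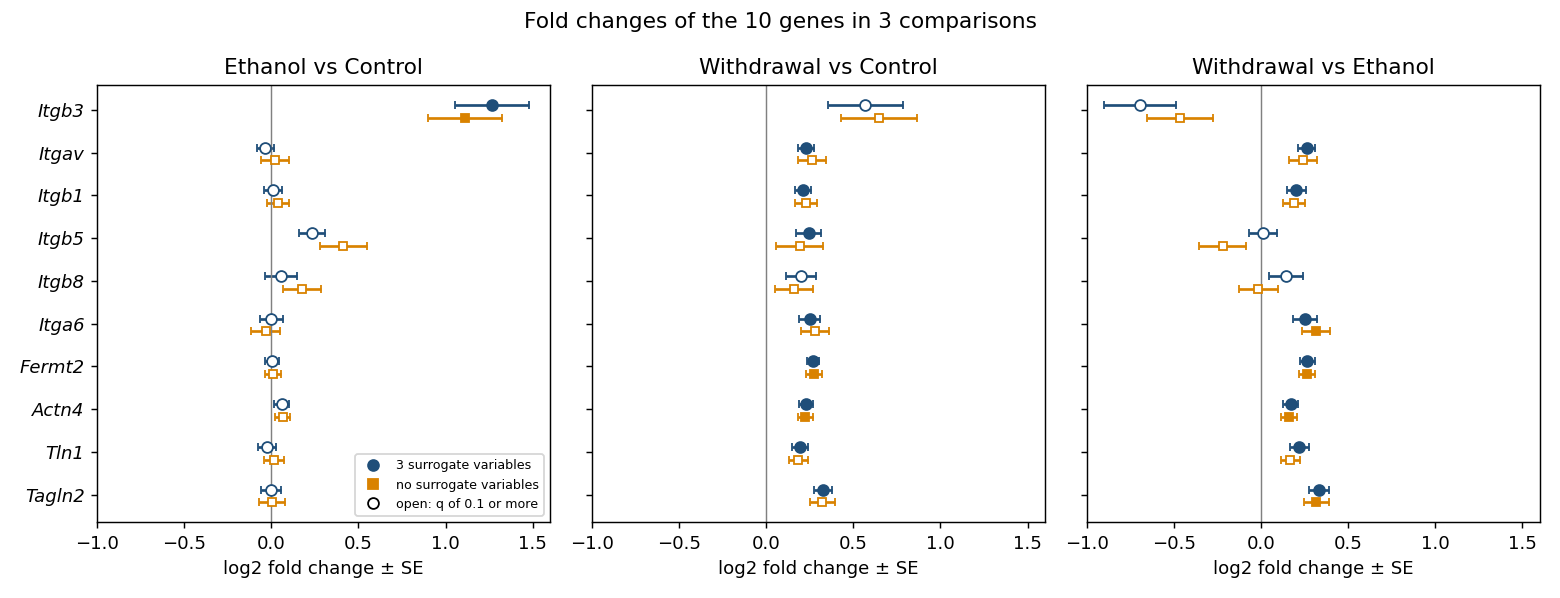
Log2 fold change ± SE of each transcript in the 3 comparisons with 3 surrogate variables (circles) and with none (squares); open symbols have q of 0.1 or more. Ethanol against control is near 0 for most genes and 1.27 for Itgb3, and both withdrawal comparisons are above 0 for Itgav, Itgb1, Itga6, Fermt2, Actn4, Tln1 and Tagln2.

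The rest of the integrin adhesion machinery was read from 86 other genes in 6 lists by role, of which 83 passed the filter. These lists too were chosen with earlier results of these data known, so their counts and q values are not independent evidence. Between ethanol and control 0 of the 83 were called by limma-voom or by edgeR's quasi-likelihood test, 2 by DESeq2, and 8 (9.64%) had an unadjusted p under 0.05, against 12.5% of all tested genes. Between withdrawal and control 10 were higher and 2 lower (2.85% and 2.55% of all genes), the median log2 fold change of the 83 genes was 0.08, and 59 were above 0. Between withdrawal and ethanol 3 were higher (1.23% of all genes) and 0 lower, and the median was 0.06. Without surrogate variables 0 of them were called between withdrawal and control, and 41 of all genes were. Without withdrawal rat 6, 1 of them and 23 of all genes were called. Leaving out any 1 of the 6 control rats gave 5 to 7 of them. Between withdrawal and ethanol 0 of them and 0 of all genes were called without ethanol rat 2, ethanol rat 3 or withdrawal rat 6. Without ethanol rat 5, 9 of them and 1800 of all genes were called. Without withdrawal rat 1, 2 or 4, 5 to 7 of them were called. Between ethanol and control 1 of them was called without withdrawal rat 5.

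Of 23 integrin ligands of the matrix tested, 5 rose between control and withdrawal and 0 fell, against 2.85% of all tested genes called higher, and the median log2 fold change of the list was 0.22. Col4a1, a chain of basement membrane collagen IV, rose from 72.6 ± 0.866 to 87.4 ± 8.19 CPM (SD, n = 6), a log2 fold change of 0.26 ± 0.06 (q = 0.0294 by limma-voom), and every withdrawal rat was above every control rat. The laminin chain Lamc1 rose from 59.7 to 69.4 CPM (q = 0.0504 by limma-voom) and Lama4 from 16.66 to 20.95 CPM (q = 0.0871 by limma-voom), with the highest Lama4 level in withdrawal rat 5. Lamc1 was higher in withdrawal than in ethanol rats too (0.26 ± 0.06, q = 0.0648 by limma-voom). Col4a1 (0.20 ± 0.06, q = 0.136 by limma-voom) and Lama4 (0.24 ± 0.08, q = 0.171 by limma-voom) were not called against ethanol.

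For other called ligands the rats overlapped widely. Lama5 (0.35, q = 0.0605 by limma-voom) had 1 withdrawal rat above and 2 below all control rats. The mean of Spp1, which encodes osteopontin, was 2.40 ± 1.26 CPM for control and 9.59 ± 15.3 CPM for withdrawal rats (q = 0.0893 by limma-voom), and its highest value was in withdrawal rat 5. Lama2 was called higher in withdrawal than in ethanol rats (0.43, q = 0.0923 by limma-voom), yet its mean CPM was 27.5 in withdrawal and 28.3 in ethanol rats, with 2 of 6 withdrawal rats above the ethanol mean.

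Of the 15 other alpha subunits tested, 2 rose in withdrawal against control and 0 fell, against 2.85% of all tested genes called higher, and the list's median was 0.03. Itga1, a collagen receptor subunit, rose from 5.22 to 6.40 CPM (0.35 ± 0.09, q = 0.0589 by limma-voom), and Itga3, a laminin receptor subunit, from 32.3 to 37.0 CPM (0.21 ± 0.05, q = 0.0431 by limma-voom). The ethanol rats had like mean levels of 6.36 CPM for Itga1 and 37.1 CPM for Itga3, and withdrawal against ethanol gave 0.11 ± 0.10 for Itga1 (q = 0.607 by limma-voom) and 0.17 ± 0.06 for Itga3 (q = 0.152 by limma-voom). Of 3 other beta subunits tested, Itgb4, which pairs with alpha-6, fell from 18.6 ± 2.69 to 13.0 ± 4.43 CPM (-0.44 ± 0.13, q = 0.0755 by limma-voom). Itgb4 was thus lower in withdrawal while its partner Itga6 was higher.

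Among 22 other adaptors 1 was called, a share near the 5.41% of all tested genes, and the list's median was 0.07. The called gene was Ilk, which encodes the integrin-linked pseudokinase of focal adhesions, and it fell from 85.1 ± 1.67 to 77.3 ± 4.74 CPM (-0.13 ± 0.04, q = 0.0755 by limma-voom), with every withdrawal rat below every control rat, as for 0.538% of all tested genes. Ilk was at 78.6 CPM in ethanol rats, and its fold change was -0.12 ± 0.04 in ethanol against control (q = 0.235 by limma-voom) and -0.01 ± 0.04 in withdrawal against ethanol. The other talin and kindlins were not called. Tln2 had mean levels of 153.0 CPM (control) and 145.0 CPM (withdrawal) and a fold change of -0.12 ± 0.05, Fermt1 had -0.22 ± 0.18 and Fermt3 0.19 ± 0.08. Of 15 signaling proteins 2 rose, the scaffold Bcar1 (0.21 ± 0.04, q = 0.0243 by limma-voom) and Git1 (0.14 ± 0.04, q = 0.0968 by limma-voom), and the median was 0.01. For Git1 the fold change in ethanol against control was 0.15 ± 0.05 (q = 0.165 by limma-voom), and that in withdrawal against ethanol was -0.01 ± 0.05. Of 5 transgelins and calponins, Cnn3 rose (0.25 ± 0.04, q = 0.0195 by limma-voom) and also rose against ethanol (0.22 ± 0.05, q = 0.0565 by limma-voom), although withdrawal rat 5 was below all control rats.

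**Figure D5:**
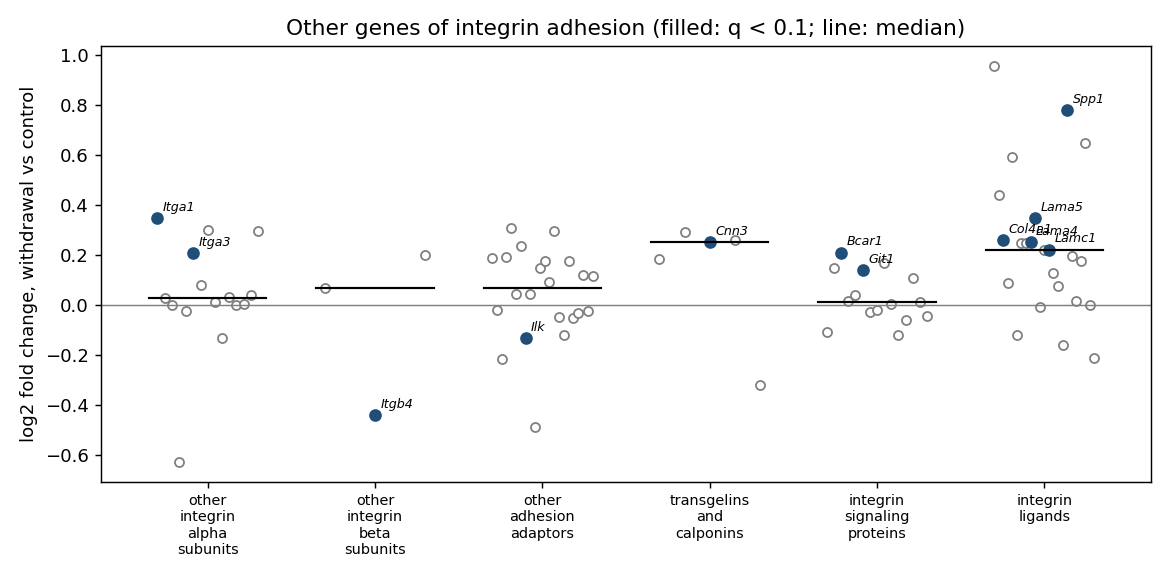
Log2 fold change between withdrawal and control of 83 other adhesion genes, by list; filled points have q < 0.1 and are named, open points have not, and lines are list medians. The median of the ligands is 0.22, and Ilk and Itgb4 are the called genes below 0.

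Markers of cells that carry these adhesions were counted beside them. Between withdrawal and control, 2 of 8 endothelial genes, 1 of 6 mural genes and 1 of 6 astrocyte genes were higher, and 2 astrocyte genes were lower, against 2.85% of all tested genes called higher and 2.55% called lower. Of the oligodendrocyte precursor genes 2 of 4 were higher, and 0 of 6 microglial, 0 of 5 oligodendrocyte, 0 of 7 neuronal, 0 of 5 thalamic, 0 of 6 choroid plexus and 0 of 4 fibroblast genes tested were called by limma-voom (18.2% in these lists had an unadjusted p under 0.05, against 19.7% of all tested genes), while 1 hippocampal and 2 red blood cell genes were lower. The summed endothelial CPM was 370 to 410 in control, 390 to 448 in ethanol and 397 to 476 in withdrawal rats, and that of mural markers was 149 to 199, 153 to 260 and 156 to 264. The summed astrocyte CPM was 2860 to 3240 in control, 2440 to 3240 in ethanol and 2390 to 3960 in withdrawal rats (medians 3130, 2820 and 3600), with the lowest value in withdrawal rat 5. Among these markers Gfap, an intermediate filament, had mean levels of 937 CPM (control) and 1330 CPM (withdrawal), while those of Gja1 were 406 and 368 CPM and those of Aldh1l1 were 29.2 and 23.1 CPM. The part of these cells in the adhesion transcripts was not tested.

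Over the 18 rats, Fermt2, Tagln2 and Actn4 varied together. Of 17852 other genes, Tagln2 was the most alike to Fermt2 (Pearson r of log2 CPM 0.929, and 0.799 for deviations from the group means), followed by Actn4 (0.923 and 0.822). For Tagln2 the most alike gene was Lrig1 (0.933). Itgav was most like Vezf1 (0.923), Itgb1 like Kirrel1 (0.888), Itga6 like Relb (0.913) and Tln1 like Pml (0.810). Itgb8 was most like Tdrd9 (0.899), Itgb5 like Elovl4 (0.914) and Itgb3 like Akt1 (0.847, and 0.548 within groups). The second most alike were Msn for Itgav (0.886), Psme2 for Itgb1 (0.867), Slc20a1 for Itga6 (0.910), Itgb1 for Tln1 (0.798), Slc12a2 for Itgb8 (0.875), Ctnnal1 for Itgb5 (0.913), Slc9a3 for Itgb3 (0.80), Fermt2 for Tagln2 (0.929) and Tnfrsf1a for Actn4 (0.911), whose first was Fermt2. These values describe the same 18 libraries, share their tissue makeup and depth, and were picked as the highest of many.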

How the data were processed

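RNA-seq counts of 18 rat hippocampi were analysed. The authors aligned paired-end reads of stranded mRNA libraries to Rnor_6.0 (annotation 106) with STAR 2.5.2a and deposited raw counts of read pairs per gene from featureCounts 1.5.0. Groups came from the sample labels. Of 38445 gene identifiers, 29322 were named from the GRCr8 gene table, used for names, and 9123 had no match. Totals were 30873228 to 42679748 counts per rat, and replicates of a group differed beyond sampling noise (chi-square per degree of freedom at least 5.74 in 45 pairs).

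Counts were TMM-normalized with edgeR 4.0.16. Genes above 0.5 CPM in at least 1 rat were kept, and limma 3.58.1 (voom) was fitted in R 4.3.3 to all 18 rats with 3 surrogate variables from sva 3.50.0 (log2 CPM, prior count 2). The study's methods state neither the number of rats for this cutoff nor the number of surrogate variables. Both followed the earlier analysis of these data. Benjamini-Hochberg q < 0.1 within a comparison was the threshold. The members and lists were chosen with earlier results of these data known. Named genes were all members, the called genes of 6 adhesion lists (at most 6 per list and comparison), and the 2 genes most alike to each member. Outside this rule, the other talin and kindlins, a gene overlapping Tagln2 and some cell markers were named as well. In a simulation of withdrawal against control on 17576 genes, 148 of 200 genes changed 2-fold were recovered with 13 false calls. On 17560 genes, none of them changed, 0 were called. The simulation held no differences in tissue makeup or index set and no changes below 2-fold. It therefore does not show how calls of smaller changes, such as those of most members, hold. Alternatives were 2 or 0 surrogate variables, edgeR's quasi-likelihood test, DESeq2 1.42.0, RLE scaling, 2 other filters, models of 2 groups, a replicate block and each rat left out.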

Additional observations from a re-analysis of the deposited data

Results flagged for a closer look

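Itgb1 in withdrawal rat 5 stood apart from its group, at 146.1 CPM against 122.9 CPM in the next highest withdrawal rat. The gap was 0.663 of the group's range, above the critical value of Dixon's test for 6 rats. Of the 30 groups of 6 rats examined over the 10 genes, this was the 1 in which a rat stood apart, and chance gives about 1 in 20. The same rat had the lowest summed hippocampal markers (257 CPM) and the highest summed fibroblast markers (523 CPM). Without it, the ratio of mean Itgb1 in withdrawal to control was 1.13, against 1.17 with it.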

How the results depend on the processing

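No fold change of the 10 genes that was called reversed its sign under an alternative. Of 838 fold changes recomputed with an adjusted p, 735 kept their side of the threshold, 100 lost the call and 3 gained it. The counts of calls moved more, and the cause was not tested. Without surrogate variables, 50, 41 and 621 of all genes were called in ethanol against control, withdrawal against control and withdrawal against ethanol, against 88, 965 and 486. With edgeR's quasi-likelihood test and no surrogate variables, an alternative chosen after seeing the data, these were 62, 33 and 682. Of the 10 genes, 1, 2 and 4 were called in both of these models, against 1, 8 and 7, and of the other adhesion genes 0, 0 and 2, against 0, 12 and 3. With 2 surrogate variables 594 and 260 of all genes were called in the withdrawal comparisons. DESeq2 called 473, 1624 and 1176 of all genes and 2 and 6 other adhesion genes in ethanol against control and withdrawal against ethanol. It gave Itgb3 no adjusted p in these comparisons, so no count of the 10 genes is given for ethanol against control. Without a filter 9, 486 and 166 of all genes, 3 of the 10 genes and 1 other adhesion gene in withdrawal against ethanol were called. Fitting only the 2 groups compared gave 28 and 0 of all genes in ethanol against control and withdrawal against ethanol, with 0 of the 10 genes in both and 0 other adhesion genes in the latter.

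Rats that share a replicate number are different animals. Their deviations from the group means did not move together (18 pairs, r from -0.325 to 0.383, median -0.0732, against 0.0353 for other pairs), and 5 of 18 rats matched their own number best. With the replicate block 26, 914 and 1 of all genes, 0, 7 and 0 of the 10 genes and 0, 13 and 0 other adhesion genes were called. The calls of Itgb3 in ethanol against control and of Itgb5 in withdrawal against control were lost with this block.

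With 1 rat left out, all genes called ranged from 0 to 258 in ethanol against control, from 23 to 1911 in withdrawal against control and from 0 to 1800 in withdrawal against ethanol. Of the 10 genes 0 to 1, 2 to 8 and 0 to 8 were called, and of the other adhesion genes 0 to 1, 1 to 17 and 0 to 9. Among these the lowest counts in withdrawal against control, 23, 2 and 1, came without withdrawal rat 6. Itgb3, with 7 to 43 counts per rat, is the gene whose level the depth limits most.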
